A study of Mus musculus with 2 samples.

Results

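The genes described here are 10 genes of the major histocompatibility complex (MHC) class II pathway of the mouse, taken by name from the 33696 genes counted in both libraries. They are H2-Aa, H2-Ab1 and H2-Eb1, which encode the α and β chains of the classical I-A and I-E molecules, Cd74 (the invariant chain), Ciita (the class II transactivator), H2-DMa, H2-DMb1 and H2-DMb2 (the chains of the peptide editor H2-DM), and H2-Oa and H2-Ob (the chains of H2-O, which inhibits H2-DM). Their identifiers in the files are ENSMUSG00000036594 (H2-Aa), ENSMUSG00000073421 (H2-Ab1), ENSMUSG00000060586 (H2-Eb1), ENSMUSG00000024610 (Cd74), ENSMUSG00000022504 (Ciita), ENSMUSG00000037649 (H2-DMa), ENSMUSG00000079547 (H2-DMb1), ENSMUSG00000037548 (H2-DMb2), ENSMUSG00000024334 (H2-Oa) and ENSMUSG00000041538 (H2-Ob). They were taken by name, with earlier results of these data known. All 10 had UMIs (unique molecular identifiers, 1 per captured RNA molecule) in both libraries. Together they held 325069 UMIs in the GFI1 KO library and 871726 in the GFI1 WT library.

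The study asked how lung cells differ between mice with and without GFI1, a transcriptional repressor of blood cell development. Lungs of adult C57BL6/J mice with a germline deletion of Gfi1, and of wild-type mice, were digested, live cells were sorted, and their RNA was counted at the 3′ end on a droplet platform together with antibody tags. The 2 libraries analysed here are 1 labelled GFI1 KO and 1 labelled GFI1 WT, each titled as mouse 1 of its genotype, and the labels name no other allele or treatment. The library names also hold the word ctrl, whose meaning the labels do not give, and whether a library held 1 mouse or a pool is not stated otherwise. There was therefore no replicate. The intervals below are exact 95% intervals that cover counting error only, no test of the genotype was possible, and a difference compares these 2 libraries. The level of Gfi1 RNA could not check the labels: 340 UMIs were counted in the KO and 470 in the WT library, 3.6 and 3.47 CPM (1 CPM is 1 UMI in 1000000 of the genes used). The 3′ tags may lie outside the deleted part, and KO and WT below mean the library labelled so.

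Class II molecules present peptides from endocytosed proteins to CD4+ T cells. Their α and β chains assemble on the invariant chain, which is then cut down to a short fragment in the endosome, and H2-DM exchanges that fragment for peptide, with H2-O holding H2-DM back. Transcription depends on CIITA, which binds no DNA itself and is recruited by factors sitting on a conserved block of X and Y boxes in front of these genes. B cells and dendritic cells use the pathway constitutively, monocytes and macrophages switch it on, and lung endothelial and epithelial cells can carry low levels.

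The X-Y block can be read directly in the promoters. RefSeq promoters (GRCm38.p6, 250 bases before to 50 after each start) were at hand for 7 of the 10 genes, as 8 entries because H2-DMa has 2. The core of the Y box, TGATTGG, was present on either strand in 6 of the 8 entries and in 7.82% of all 32851 promoters. The letters ATGATGC or TGACGTCA, which resemble the X2 box, are carried by 2.46% and 1.79% of all promoters, and TGATTGG together with either of them by 0.326%. Of the 8 member entries 5 had that combination. Neither H2-DMa entry held any of the 3 letter strings in this window. The 6 windows are shown because they hold the element through which the genes are known to share control. The Y box core and, where present, the X2-like letters are in capitals, 5′ to 3′ on the strand of the gene. The letters were chosen after the sequences were seen.
H2-Aa: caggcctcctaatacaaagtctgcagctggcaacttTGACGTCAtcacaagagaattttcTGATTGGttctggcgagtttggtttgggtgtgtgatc
H2-Eb1: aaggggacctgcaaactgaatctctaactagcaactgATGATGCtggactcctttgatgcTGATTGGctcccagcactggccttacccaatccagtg
H2-DMb1: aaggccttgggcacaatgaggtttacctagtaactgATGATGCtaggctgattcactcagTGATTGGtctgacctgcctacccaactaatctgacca
H2-DMb2: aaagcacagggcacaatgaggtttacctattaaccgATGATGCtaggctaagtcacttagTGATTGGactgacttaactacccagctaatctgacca
H2-Ob: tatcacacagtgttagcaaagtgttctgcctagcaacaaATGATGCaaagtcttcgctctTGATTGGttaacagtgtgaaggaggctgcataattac
H2-Oa: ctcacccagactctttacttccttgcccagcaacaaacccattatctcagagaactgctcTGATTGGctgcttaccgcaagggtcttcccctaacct
The H2-Aa window lies at chr17:34287837-34287933 on the minus strand, and the others on the plus strand at chr17:34305746-34305842 (H2-Eb1), chr17:34153068-34153164 (H2-DMb1), chr17:34145097-34145193 (H2-DMb2), chr17:34238786-34238882 (H2-Ob) and chr17:34092274-34092370 (H2-Oa). All lie before the transcription start, with the Y box core starting 45 to 92 bases upstream. Where both elements were found, their starts were 21 to 24 bases apart. Of the letter strings searched for, H2-Oa had the Y box core alone. Other forms of the X box were not searched for. A match is a description of the letters and not a measurement of binding.

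After filtering, 10495 KO and 19342 WT cells remained, with a median of 11076 and 6217 UMIs per cell, and 74 cell barcodes occurred in both libraries. Cells were clustered without the class II genes and a cluster was called "-like" a class from marker genes, since no deposited annotation of cells was used. The counts of KO and WT cells were 937 and 3079 B-like, 86 and 599 dendritic-like, 4280 and 756 monocyte-like, 2361 and 3748 alveolar macrophage-like, 20 and 156 interstitial macrophage-like, 159 and 147 epithelial-like, 115 and 2340 endothelial-like, and 993 and 4596 lymphoid-like. The 1498 KO and 2134 WT cells of unnamed clusters entered the library totals only. Of the markers listed for a class, all 8 of the B, alveolar macrophage and interstitial macrophage lists were higher in their class than in other cells of both libraries, as were 28 and 30 of 32 dendritic, 14 of 15 monocyte, 28 and 26 of 32 epithelial, and 23 of 31 endothelial markers. The antibody tags went against the name epithelial-like in the KO library. There the CD45 and CD11b tags, of leukocytes and of myeloid cells, had medians of 568 and 363 counts per cell, against 6 and 1 in the WT library. No tag measured a class II protein.

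Dendritic-like, interstitial macrophage-like and B-like cells stood above all other classes in both libraries. Levels are given as CPM over the summed cells of a class. For the sum of H2-Aa, H2-Ab1 and H2-Eb1, the order in the WT library was dendritic-like (19953 CPM), interstitial macrophage-like (17031), B-like (9028), monocyte-like (2370), endothelial-like (1168), alveolar macrophage-like (421), epithelial-like (390) and, near the bottom, lymphoid-like cells (77.2). In the KO library the same 3 classes led, with 25632, 13639 and 11598 CPM, and below them endothelial-like (703) and monocyte-like cells (702) had overlapping intervals. Epithelial-like (500), alveolar macrophage-like (294) and lymphoid-like cells (37.4) followed. In the WT library the alveolar macrophage-like and epithelial-like intervals overlapped. The other neighbours among these 8 classes did not overlap within counting error.

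Cells that should lack the pathway give the background. Neutrophil-like cells, which carry almost no class II, read 126 CPM in the WT library (536 UMIs in 1429 cells) and 9.99 CPM in the KO library, where 8 cells held 1 UMI. Fibroblast- and mural-like stromal cells read 316 and 46.7 CPM, the KO value from 5 UMIs. Lymphoid-like cells, which are T, NK and innate lymphoid cells, were as a class below both of these levels in the WT library. In the KO library their 37.4 CPM lay within the interval of the 8 neutrophil-like cells (0.253 to 55.7 CPM). The epithelial-like level of the WT library was 1.23-fold above the stromal one.

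**Figure D1:**
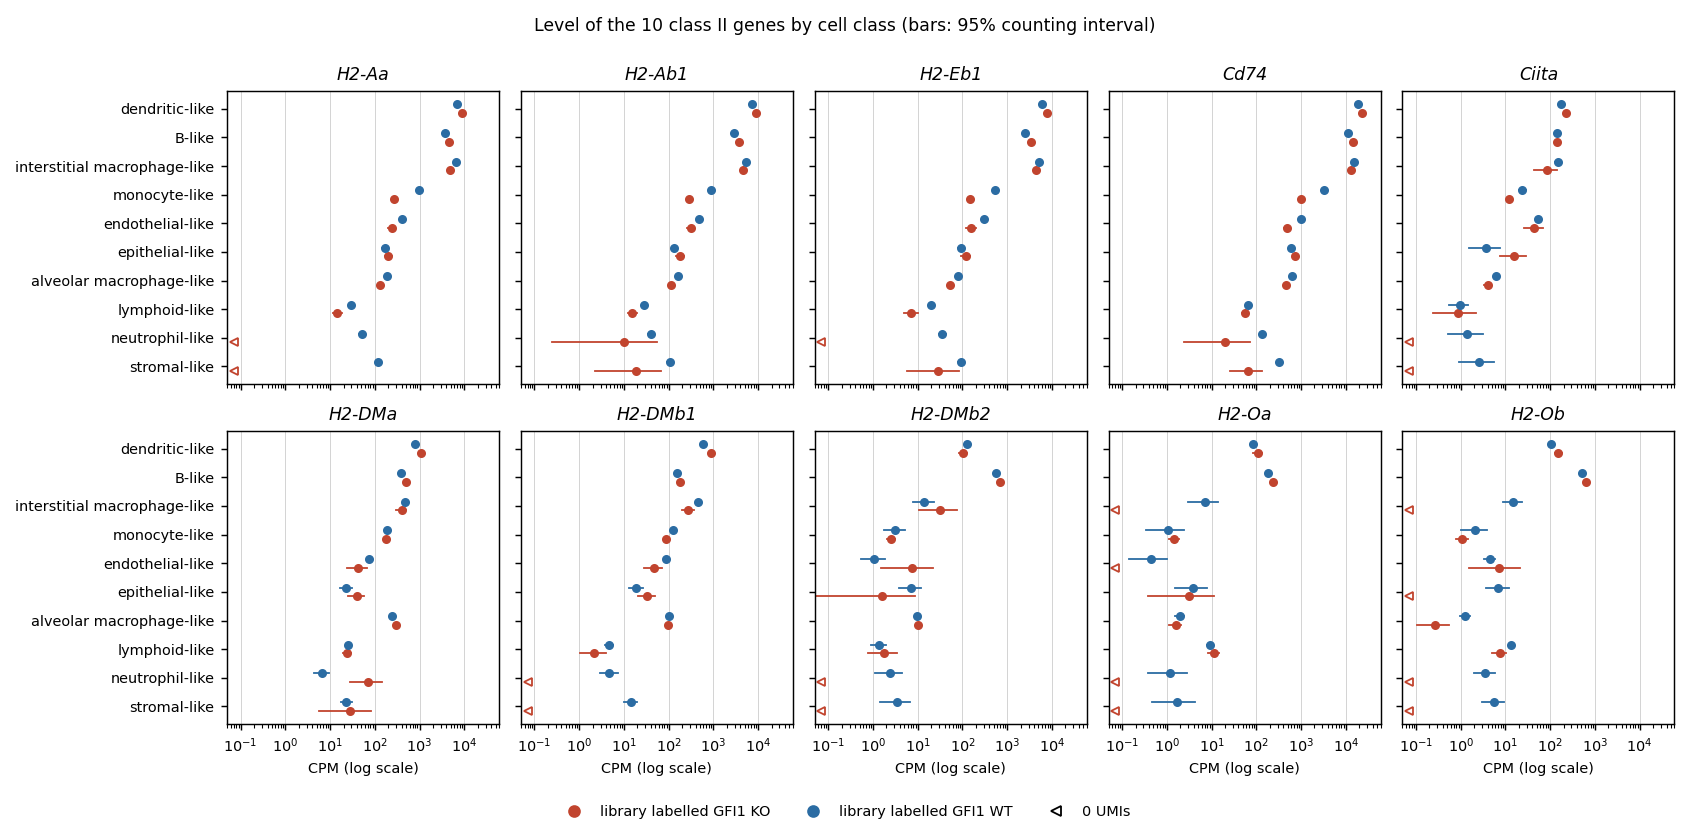
Level of each of the 10 genes in 10 cell classes, in CPM on a log axis, with red points for the library labelled GFI1 KO, blue points for the library labelled GFI1 WT, bars for the 95% counting interval and open triangles for 0 UMIs. H2-Aa, H2-Ab1, H2-Eb1, Cd74 and Ciita share their top 3 classes, while H2-DMb2, H2-Oa and H2-Ob are highest in B-like cells.

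Cd74 RNA was the most abundant of the 10 wherever the pathway was active. It read 22561 CPM (KO) and 18331 CPM (WT) in dendritic-like cells, 14459 and 11187 in B-like cells, and 13048 and 15319 in interstitial macrophage-like cells. It was also read in alveolar macrophage-like cells, at 473 and 627 CPM. Ciita, the regulator, was low everywhere, with 232 and 177 CPM in dendritic-like, 143 and 145 in B-like and 83.4 and 151 in interstitial macrophage-like cells. In endothelial-like cells Ciita stood at 44.1 CPM (18 UMIs) and 54.2 CPM (617 UMIs), above its level in monocyte-like cells (12.2 and 23.9). Relative to the classical genes this made endothelial-like cells the class with the most Ciita, 62.7 and 46.4 Ciita UMIs per 1000 classical UMIs against 12.3 and 16.0 in B-like and 9.04 and 8.86 in dendritic-like cells.

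Taken over all cells, the classical genes were lower in the KO library, at 1352 CPM against 2830 CPM in the WT library, a KO/WT ratio of 0.478 (0.475 to 0.481). Cd74 (1653 and 3055 CPM), Ciita (19.6 and 38.8), H2-DMb2 (31.7 and 72.7), H2-Oa (11.98 and 26.2) and H2-Ob (24.9 and 63.0) were lower too. H2-DMa, by contrast, read 238 CPM in the KO and 221 CPM in the WT library (ratio 1.07, 1.06 to 1.09), and H2-DMb1 read 110 and 123 CPM.

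These totals follow which cells were sequenced as well as what each cell held. Monocyte-like cells gave 43.3% of the KO and 3.51% of the WT library's UMIs, dendritic-like cells 0.863% and 4.91%, and B-like cells 3.13% and 8.60%. The classical UMIs of the WT library came mainly from dendritic-like (34.6%) and B-like cells (27.4%), with 2.94% from monocyte-like cells. In the KO library B-like cells gave 26.8%, monocyte-like cells 22.5% and dendritic-like cells 16.4%. Unnamed clusters held 25.9% and 20.6%. A level over all cells thus cannot be told apart from the mix of cells, and the comparisons below are made within classes.

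The genes differed in their main source. H2-Ob came from B-like cells for 78.3% (KO) and 71.3% (WT) of its UMIs, H2-DMb2 for 69.4% and 68.1%, and H2-Oa for 62.2% and 60.5%. H2-DMa came most of all from alveolar macrophage-like cells (35.5% and 37.4%), and in the KO library for a further 32.8% from monocyte-like cells, against 2.95% in the WT library. Endothelial-like cells gave 11.7% of the WT library's Ciita UMIs and 3.46% of its classical UMIs.

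**Figure D2:**
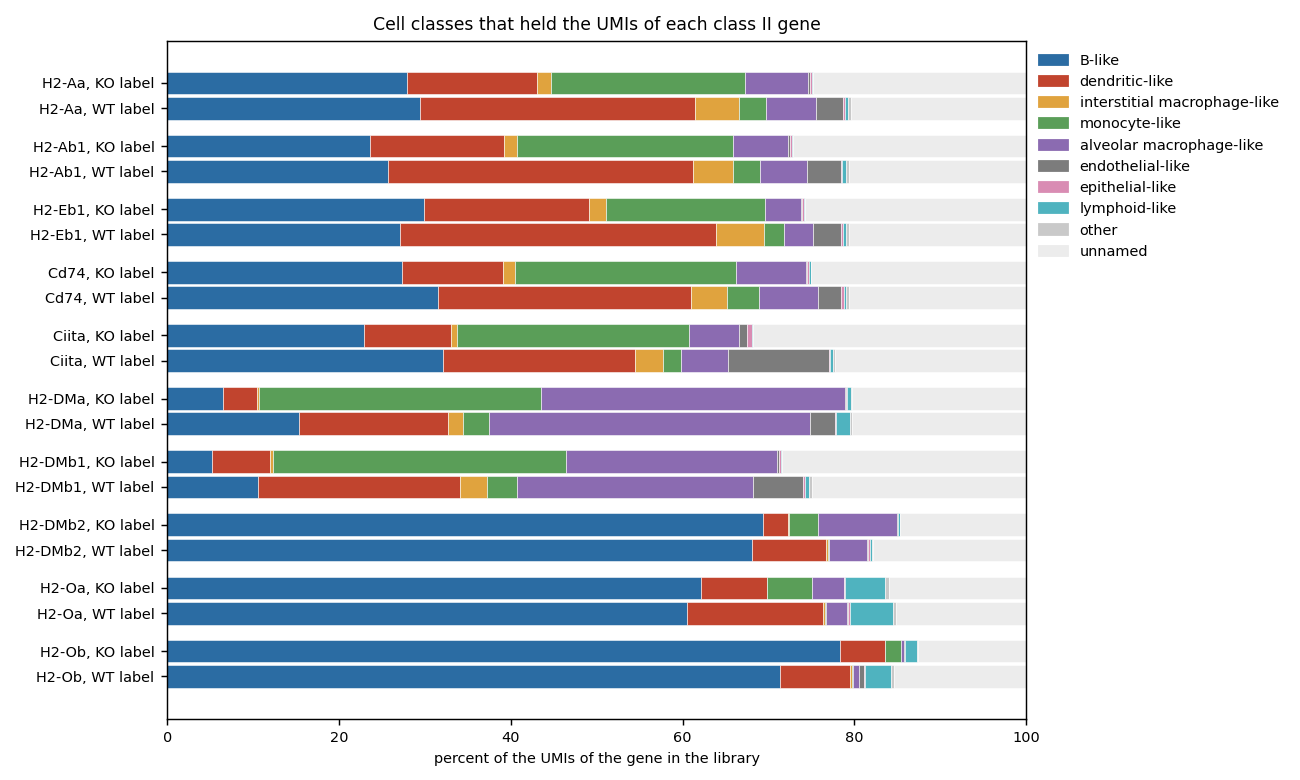
Share of each gene's UMIs that came from each cell class, in percent of the gene's UMIs in the library, with 1 bar per gene and library and colours for the classes. Monocyte-like cells fill 22.5% of the classical UMIs of the KO library and 2.94% of those of the WT library.

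In B-like cells 9 of the 10 genes read higher in the KO library by 1.196- to 1.34-fold, and the interval of Ciita included 1. The classical sum was 11598 CPM in the KO and 9028 CPM in the WT library, a ratio of 1.28 (1.27 to 1.301). That ratio was nearer to 1 when each library was clustered on its own, as given in the closing section. H2-Eb1 had the highest ratio, with 3320 and 2471 CPM (1.34), and H2-Ob the lowest of the 9, with 624 and 522 CPM (1.196). Ciita read 143 and 145 CPM (0.989, 0.887 to 1.10).

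A member was counted as past the fold when the libraries differed by at least 1.5-fold in a gene with at least 50 UMIs in the class. By this rule 0 of 10 members were higher and 0 lower in B-like cells, where 3.68% and 5.61% of 9957 genes were. The median log2 ratio of the members was 0.33, against -0.01 over all genes tested.

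The direction was not the same in all B-like clusters. Cluster 1 held most of the cells (793 KO, 2355 WT) and was led by Fcer2a, Ighd and Cr2, genes of follicular B cells. It read 12620 and 10004 CPM (ratio 1.26). Clusters 13.1 and 13.2, both with Fcrl5 among their leading genes, read 10812 and 7981 CPM and 11452 and 7585 CPM, the KO values from 21 and 17 cells. Cluster 15 (106 and 379 cells), led by Agbl1, Klhl14 and Vpreb3, was lower in the KO library instead, at 4939 and 5756 CPM (0.858, 0.815 to 0.903). Its Ciita was 58.3 CPM (21 UMIs) against 117 CPM (170 UMIs), while its Cd74 was 11167 and 10626 CPM.

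The median and the 10th and 90th percentiles over cells were higher in the KO library, but so was the share of cells with no classical UMI. After each cell was thinned to 1500 UMIs, which left out 35 KO and 45 WT B-like cells, the median cell held 18 classical UMIs in the KO and 14 in the WT library, the 10th percentile 8 and 6 and the 90th percentile 28 and 23. No classical UMI was left in 2.66% of KO and 0.758% of WT cells, and the 5th percentile was 3.05 and 4 UMIs. At least 1 classical UMI was found in 97.3% (96.1 to 98.3) and 99.2% (98.9 to 99.5) of cells, or 97.7% and 99.5% without thinning, and 5 or more in 93.8% of either. In cluster 1 the medians were 19 and 15, and in cluster 15 they were 6 and 8. The cells without a classical UMI lay mostly in cluster 15. At least 1 was found in 82 of 104 KO and 357 of 377 WT cells there, and in 758 of 760 and 2311 of 2312 in cluster 1.

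Of the named classes, dendritic-like cells had the highest summed classical level in both libraries. In them 9 of 10 genes read higher in the KO library, from 86 cells there against 599. The classical sum was 25632 and 19953 CPM (1.28, 1.27 to 1.303). H2-DMb1 had the highest ratio, 865 and 592 CPM (1.46, 1.35 to 1.58), followed by H2-Ob with 151 and 106 CPM (1.43, 1.17 to 1.73). H2-DMb2 was the exception over the class, with 104 and 127 CPM (0.819, 0.647 to 1.02), and is given by kind of cell below. None of the 10 passed 1.5-fold in either direction, where 6.97% of 9557 genes were higher and 15.8% lower, and the members' median log2 ratio was 0.38 against -0.05.

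The 4 kinds of dendritic-like cell differed far more from each other than between libraries. cDC2-like cells, which prime CD4+ T cells, held the most, with 47137 and 34930 CPM in cluster 14.1 (6 and 112 cells). cDC1-like cells (cluster 21), known for cross-presentation, read 30018 and 24076 CPM (56 and 220 cells). Fscn1-high migratory cells (10 and 108 cells) and plasmacytoid cells (13 and 132 cells) were several-fold lower, at 8811 and 8143 CPM and at 3545 and 4038 CPM.

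The ratio was 1.25 (1.23 to 1.27) in cDC1-like, 1.35 in the cDC2-like cluster, 1.08 (0.996 to 1.17) in migratory and 0.878 (0.791 to 0.972) in plasmacytoid cells. H2-DMb2 read 93.7 and 86.8 CPM in cDC1-like cells, 514 and 359 in cluster 14.1 and 70.5 and 50.8 in migratory cells. These ratio intervals included 1, and plasmacytoid cells had 0 and 27 UMIs. The H2-DMb1 ratio was 1.23 in cDC1-like cells, 1.12 in cluster 14.1, 1.37 in migratory and 1.34 in plasmacytoid cells, against 1.46 over the class. The part of the mix of kinds was not tested. The thinned median cell held 47.5 and 41 classical UMIs in cDC1-like and 63 and 48 in cDC2-like cells (clusters 14.1 and 12.9, 7 and 137 cells). In migratory cells it held 11 and 4.5, and in plasmacytoid cells 3 and 5. With migratory and plasmacytoid cells left out, an alternative chosen after the data were seen, the log2 ratio of the class was 0.23 in place of 0.36, and without cells called doublets it was 0.24.

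**Figure D3:**
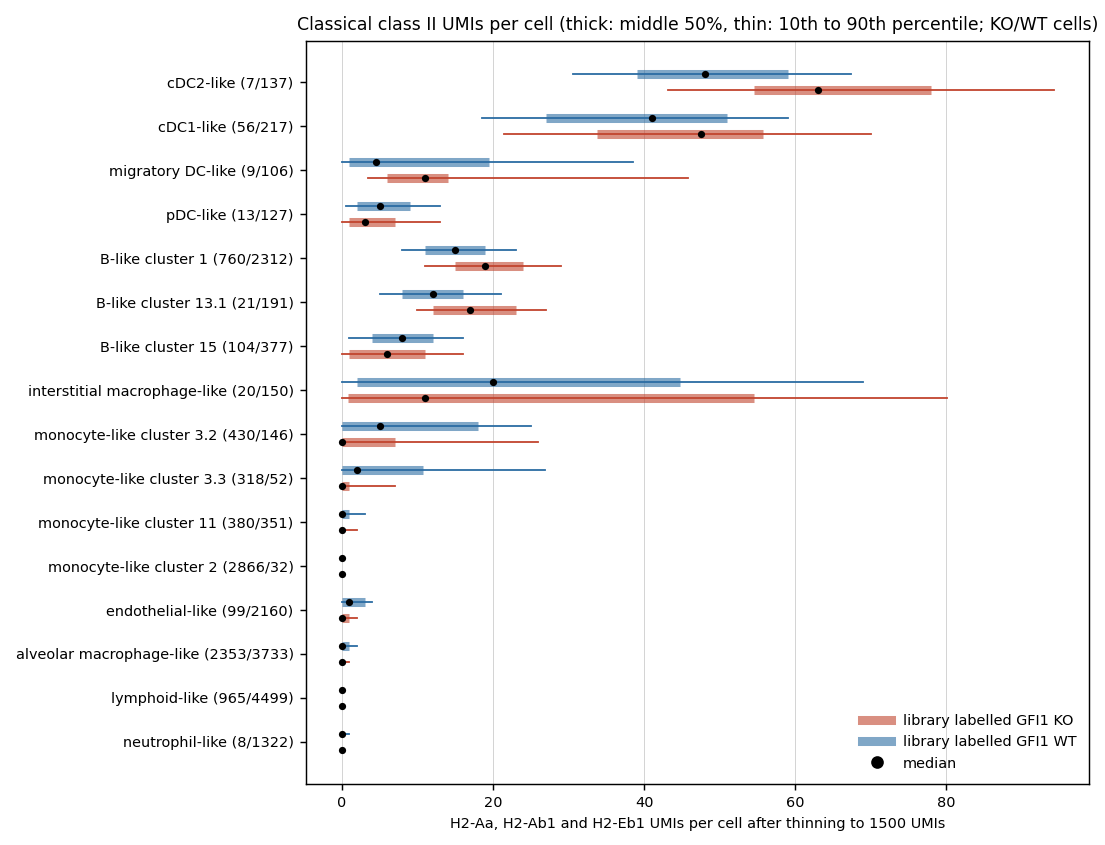
Classical class II UMIs per cell after thinning each cell to 1500 UMIs, for the library labelled GFI1 KO (red) and GFI1 WT (blue), with points at the median, thick bars for the middle 50% of cells and thin bars for the 10th to 90th percentile. The KO median is higher in cDC1-like cells (47.5 against 41) and B-like cluster 1 (19 against 15), and lower in B-like cluster 15 (6 against 8).

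Monocyte-like cells were made of different clusters in the 2 libraries, and their summed levels differed. The classical sum was 702 CPM in the KO and 2370 CPM in the WT library, 3.38-fold lower in the KO library (3.305 to 3.45). Of the 10 members 6 were past 1.5-fold lower and 0 higher, where 15.6% of 10874 genes were lower and 16.6% higher. The 6 were H2-Aa (265 and 969 CPM), H2-Ab1 (288 and 875), H2-Eb1 (148 and 526), Cd74 (984 and 3229), Ciita (12.2 and 23.9) and H2-Ob, the last with 44 and 10 UMIs and a ratio of 0.512 (0.254 to 1.14). H2-DMa stood apart from them, at 180 and 186 CPM (0.969, 0.904 to 1.04), and H2-DMb1 was at 86.8 and 125 CPM (0.695). The median log2 ratio of the members was -0.97, against 0.01 over all genes tested.

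The size of this difference changed with which clusters were counted and how they were weighted. Cluster 2 was led by Ly6a2, Prtn3, Lcn2, Vcan, Fcnb, F13a1, Dmkn, Saa3, Abca13 and Lrg1. Of these 10, Vcan and F13a1 were on the list of classical monocyte markers and Prtn3, a granule protease gene, on that of granule precursors, and Lcn2 and Fcnb also encode granule proteins. The cluster had 7 of 8 classical monocyte markers raised. It had 2867 of the 4280 KO cells and 32 of the 756 WT cells. It was almost without classical class II in both libraries, at 68.1 and 51.1 CPM (1.33, 0.762 to 2.58), yet it held H2-DMa at 161 and 170 CPM. Without cluster 2, an alternative added after the data were seen, the log2 ratio of the class was -0.065 in place of -1.76. With the clusters given the same weight in both libraries it was -0.65.

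Within clusters the direction varied. In cluster 3.2 (432 and 146 cells), which had the most class II and was led by Adgre4 and Treml4, the sum was 4184 and 6250 CPM (0.669, 0.651 to 0.689), and Cd74 was 4986 and 7157 CPM. In cluster 3.3 (318 and 52 cells), led by Cxcl10 and Il1b, it was 1452 and 5434 CPM (0.267, 0.253 to 0.282). The Cd300e-high nonclassical cluster 11 (384 and 357 cells) was close to even in level, at 1099 and 984 CPM (1.12, 1.05 to 1.19). Fewer of its KO cells had a classical UMI, 18.4% (14.7 to 22.7) against 25.9% (21.4 to 30.8) thinned. Unthinned it was 27.9% and 37.3%. Clusters 3.4, led by Ly6i and Ifi27l2a, and 3.5, led by interferon-induced Ifit genes, were higher in the KO library, at 1391 and 830 CPM and at 1348 and 878 CPM.

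Over the class, a minority of monocyte-like cells had a classical UMI. After thinning it was 14.2% (13.2 to 15.3) of KO and 34.7% (31.3 to 38.2) of WT cells, and without thinning 30.4% and 47.9%. By cluster the thinned share was 49.8% and 67.8% in cluster 3.2. In cluster 2 it was 4.95% and 9.38%, the WT value from 32 cells. The share in WT neutrophil-like cells, which should have none, was 10.8% thinned and 18.5% unthinned, at a median depth of 2811 UMIs against 9357 (KO) and 6059 (WT) in monocyte-like cells. The tenth of cells with the most held 96.3% of the class's thinned classical UMIs in the KO and 73.8% in the WT library. Alveolar macrophage markers, as a summed level, moved with the label as well, at 4017 CPM in KO and 1004 CPM in WT monocyte-like cells, with 0 of 8 markers at 0 in either, and their part in the result was not tested. An unnamed cluster that shares monocyte markers (cluster 3.1, 893 and 16 cells) read 1538 and 4907 CPM.

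**Figure D4:**
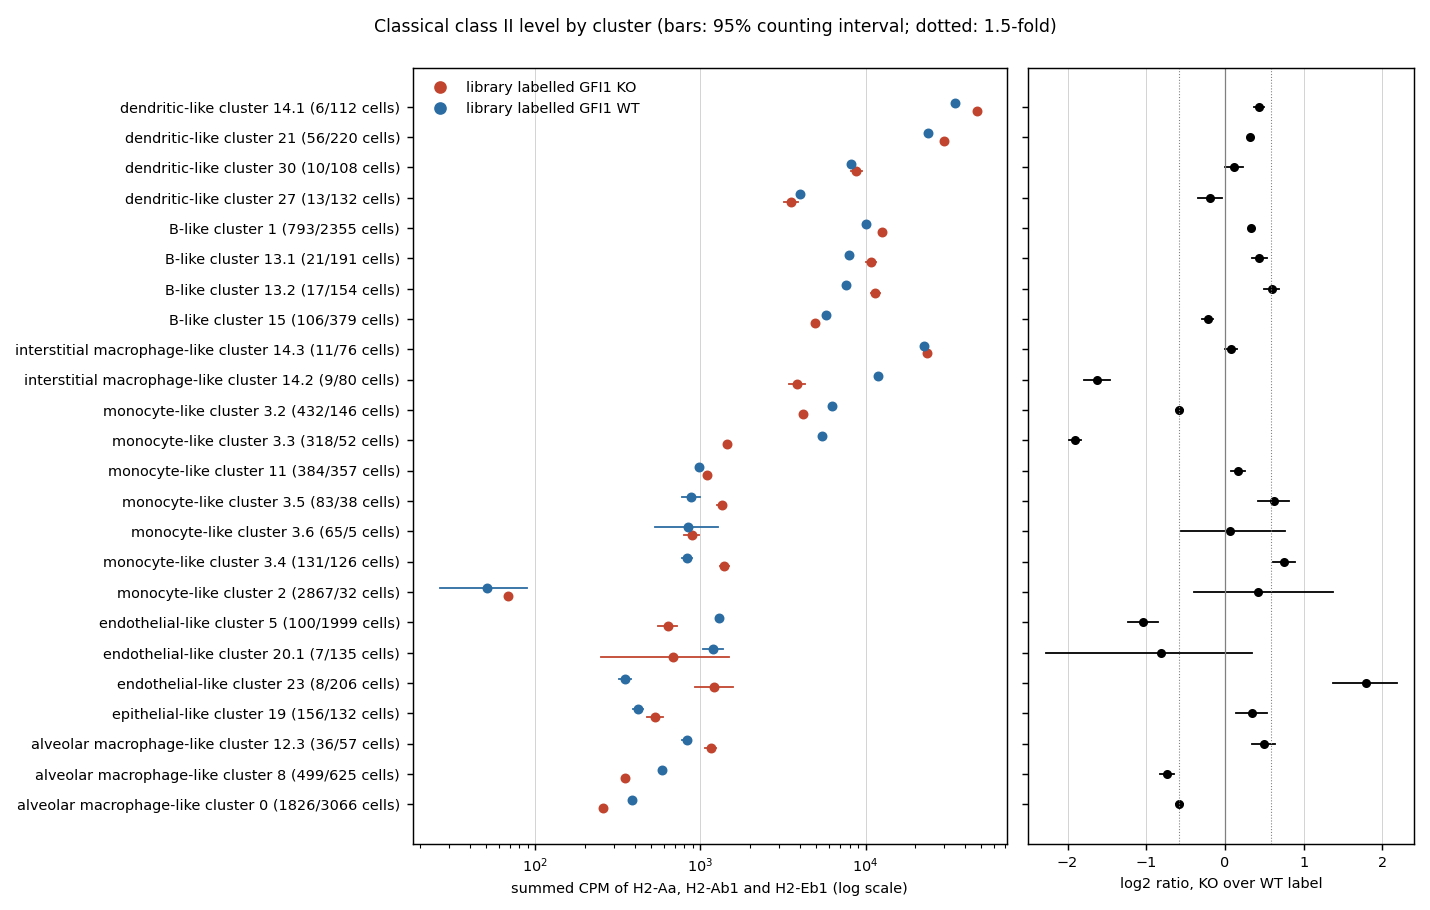
Left, summed CPM of H2-Aa, H2-Ab1 and H2-Eb1 by cluster on a log axis, for the library labelled GFI1 KO (red) and GFI1 WT (blue). Right, the log2 ratio of KO over WT label, with 95% counting intervals and dotted lines at 1.5-fold. Monocyte-like cluster 2, with 2867 KO and 32 WT cells, lies lowest of the monocyte-like clusters at 68.1 and 51.1 CPM, and clusters of 1 class fall on both sides of a ratio of 1.

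Alveolar macrophages are known as weak presenters of antigen, and their classical genes were low in both libraries, at 294 CPM (KO) and 421 CPM (WT), 1.43-fold lower in the KO library (1.40 to 1.47). The members past 1.5-fold were H2-Eb1 (51.3 and 78.8 CPM), Ciita (4.0 and 6.29 CPM) and H2-Ob (7 and 57 UMIs), all lower. These were 3 of 10, where 5.75% of 11784 genes were lower and 1.01% higher. H2-Ob was not above the background in the WT library. It had 57 UMIs among 45441405 there, against 15 among 4240159 in WT neutrophil-like cells. H2-DMa read higher in the KO library but within 1.5-fold, at 298 and 247 CPM (1.21, 1.17 to 1.24). H2-DMb1 was at 96.2 and 101 CPM. The main cluster 0 read 258 and 387 CPM and cluster 8 read 352 and 586 CPM. Cluster 12.3 (36 and 57 cells), led by the cell cycle genes Ccne2 and Uhrf1, read 1159 and 824 CPM. Fewer of its KO cells had a classical UMI, 11.1% (3.11 to 26.1) against 42.1% (29.1 to 55.9) thinned. Unthinned it was 38.9% and 86.0%. When the level of neutrophil-like cells was subtracted in each library, the log2 ratio of the classical sum went from -0.52 to -0.055, the KO level subtracted resting on 8 cells. A classical UMI was seen in 17.98% of KO and 27.1% of WT cells thinned, and in 39.6% and 60.4% unthinned.

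Interstitial macrophage-like cells are the other macrophage of the lung. Their classical level ranked next after dendritic-like cells, which read 1.17-fold higher in the WT and 1.88-fold higher in the KO library. Only 20 such cells were in the KO library. The classical sum was 13639 and 17031 CPM (0.801, 0.765 to 0.838), and Cd74 was 13048 and 15319 CPM. Ciita (13 and 173 UMIs, ratio 0.552) and H2-DMb1 (42 and 517 UMIs, 0.597) were past 1.5-fold lower, 2 of 7 members with enough UMIs, where 25.2% of 4723 genes were lower and 9.29% higher. As a mean over cells the log2 ratio of the classical sum turned from -0.32 to 0.089. H2-Oa and H2-Ob had 0 UMIs in these KO cells and 8 and 17 in the WT cells.

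The class was made of 2 clusters that differed from each other. The Prg4- and Alox15-high cluster 14.3 (11 and 76 cells) read 23690 and 22467 CPM. The Cxcl13- and Folr2-high cluster 14.2 (9 and 80 cells) read 3851 and 11859 CPM (0.325, 0.289 to 0.364). Alveolar macrophage markers summed to 2266 CPM in the KO and 269 CPM in the WT cells, with 3 and 0 of 8 at 0, and their part was not tested.

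Endothelial-like cells held the whole classical set at a low level, and it was lower in the KO library, from 115 cells there against 2340. The classical sum was 703 and 1168 CPM, 1.66-fold lower (1.48 to 1.87). H2-Aa (238 and 398 CPM), H2-Ab1 (309 and 467), H2-Eb1 (157 and 303), Cd74 (480 and 988), H2-DMa (41.7 and 76.0) and H2-DMb1 (46.6 and 85.3) were past 1.5-fold lower, and H2-Ob, with 3 and 51 UMIs and a ratio of 1.64 (0.327 to 5.07), past it higher. These were 6 and 1 of 8 members with enough UMIs, where 17.7% of 10319 genes were lower and 10.4% higher. Ciita did not pass, at 44.1 and 54.2 CPM (0.813, 0.479 to 1.296).

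The main cluster 5 (100 and 1999 cells) read 634 and 1303 CPM (0.487, 0.424 to 0.556). The Apln- and Fibin-high cluster 23, with 8 KO cells, read higher instead, at 1216 and 351 CPM from 58 and 560 UMIs. The share of its cells went the other way. Thinned, 1 of the 8 KO cells (12.5%) had a classical UMI, against 21.6% of WT cells, and unthinned 25% and 48.1%. The 3 KO H2-Ob UMIs given above also lay in this cluster. Over the class, a classical UMI was seen in 47.5% (37.3 to 57.8) of KO and 63.9% (61.9 to 66.0) of WT cells thinned. That compares with 10.8% in WT neutrophil-like cells. Unthinned, the class shares were 56.5% and 79.3%. B cell markers summed to 257 CPM in the KO and 114 CPM in the WT endothelial-like cells, with 1 and 0 of 8 at 0, against 18009 and 18756 CPM in B-like cells, and their part was not tested.

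The cluster that made up most of the epithelial-like class (156 of 159 KO and 132 of 147 WT cells) was named from club cell markers, but its KO cells carried the CD45 and CD11b tags given above, so the libraries are set side by side here and not as the same kind of cell. The classical sum was 500 and 390 CPM (1.28, 1.12 to 1.47). H2-DMa (25 and 42 UMIs, ratio 1.75, 1.02 to 2.93) and H2-DMb1 (21 and 35 UMIs, ratio 1.76, 0.973 to 3.11) were past 1.5-fold higher, 2 of 6 members with enough UMIs, where 34.8% of 6199 genes were higher and 18.8% lower. Alveolar macrophage markers summed to 771 CPM in the KO and 215 CPM in the WT epithelial-like cells, with 1 and 0 of 8 at 0, and Cd86 (695 and 48.4 CPM) and Marchf1 (227 and 9.13 CPM), genes of presenting cells, differed the same way. Their part in the class II values was not tested. The median depth was 1914 and 6803 UMIs per cell. The direction itself changed with the way cells were grouped: the log2 ratio was 0.36 as reported, -0.17 as a mean over cells and -3.69 at a coarser clustering that left 14 KO cells.

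In lymphoid-like cells the classical sum was 37.4 and 77.2 CPM, from 171 and 1470 UMIs. H2-Aa, H2-Ab1, H2-Eb1, H2-DMb1 and H2-Ob were past 1.5-fold lower, 5 of 8 members with enough UMIs and 0 higher, where 12.0% of 11104 genes were lower and 9.99% higher. The WT classical sum was below the 126 CPM of WT neutrophil-like cells, which read 9.99 CPM in the KO library. H2-DMb1 had 88 UMIs among 19053528 in WT lymphoid-like cells, against 20 among 4240159 in WT neutrophil-like cells. The lower classical and H2-DMb1 values are therefore not read as a change in expression. A classical UMI was found in 2.80% of KO and 6.51% of WT cells thinned, below the 10.8% of WT neutrophil-like cells, so the share over the class is not read as expression. The Il5-high cluster 26 stood above the other lymphoid-like cells in the WT library, with 286 CPM and a classical UMI in 15.4% (10.0 to 22.3) of 149 cells thinned, an interval that includes 10.8%. When the libraries were clustered separately, the log2 ratio turned from -1.05 to 0.99. H2-Oa read 11.4 and 9.34 CPM in lymphoid-like cells, above alveolar macrophage-like (1.57 and 1.94) and monocyte-like cells (1.44 and 1.05), and 1.18 CPM in WT neutrophil-like cells.

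Within B-like and dendritic-like cells Cd74 and H2-DM stood in similar proportion to the classical genes in the 2 libraries. Ciita in B-like cells (above) did not. The H2-DMb2 share of the H2-DM β chain over all dendritic-like cells also differed, at 10.8% in the KO and 17.7% in the WT library. Within cDC1-like and within cDC2-like cells the intervals of that share overlapped (below). The part of the mix of kinds was not tested. Cd74 stood at 125 and 124 UMIs per 100 classical UMIs in B-like cells, 88.0 and 91.9 in dendritic-like and 140 and 136 in monocyte-like cells (KO and WT). H2-DM, the editor, stood at 11.9 and 12.4 per 100 classical UMIs in B-like, 7.95 and 7.52 in dendritic-like and 13.6 and 13.9 in endothelial-like cells. Monocyte-like cells differed, with 38.4 in the KO and 13.2 in the WT library. Cluster 2, with 2867 KO and 32 WT cells, held 6343 of the 11018 KO H2-DM UMIs and 2023 of the 28709 KO classical UMIs. In the WT library it held 50 of 1495 and 12 of 11291. The part of the mix of clusters was not tested. Alveolar macrophage-like cells held more H2-DM than classical RNA in the KO library (138 per 100) and nearly as much in the WT library (85.0 per 100). H2-DMa was found in 35.5% (33.6 to 37.5) and 30.7% (29.2 to 32.2) of alveolar macrophage-like cells thinned and in 91.5% and 89.4% unthinned, against 0.756% thinned and 1.82% unthinned in WT neutrophil-like cells.

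Most UMIs of H2-O, the inhibitor of H2-DM, came from B-like cells. There were 62.3 (KO) and 63.0 (WT) H2-O UMIs per 100 H2-DM UMIs in B-like cells, 67.2 and 73.2 in lymphoid-like cells (from 86 and 436 H2-O UMIs), 12.6 and 12.7 in dendritic-like cells, 0.935 and 1.00 in monocyte-like cells and 0.453 and 0.891 in alveolar macrophage-like cells. Among WT dendritic-like cells the plasmacytoid ones had the highest value, 27.4 per 100 from 121 H2-O UMIs, against 11.4 in cDC1-like and 13.03 in cDC2-like cells.

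The β chain of H2-DM is encoded by a pair of neighbouring genes whose promoters are printed above, and the cell types used them differently. H2-DMb2 gave 79.4% (77.8 to 81.0) of the β chain UMIs in KO and 79.2% (78.3 to 80.0) in WT B-like cells. It gave 7.82% and 8.81% in cDC1-like cells but 35.1% and 30.8% in cDC2-like cells, the KO value from 77 UMIs. Among other WT cells it gave 45.1% in migratory, 15% in plasmacytoid, 3.0% in interstitial macrophage-like and 1.22% in endothelial-like cells, and 9.60% and 8.78% in KO and WT alveolar macrophage-like cells. The intervals of the 2 libraries overlapped in each type that both could measure except nonclassical monocyte-like cells, which stood at 0.429% (0.139 to 0.998, 5 of 1166 UMIs) and 2.37% (1.09 to 4.45, 9 of 380 UMIs). H2-DMb1 and H2-DMb2 are near-identical copies, so that reads of a shared stretch could be dropped or misplaced and the split is uncertain to that extent.

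**Figure D5:**
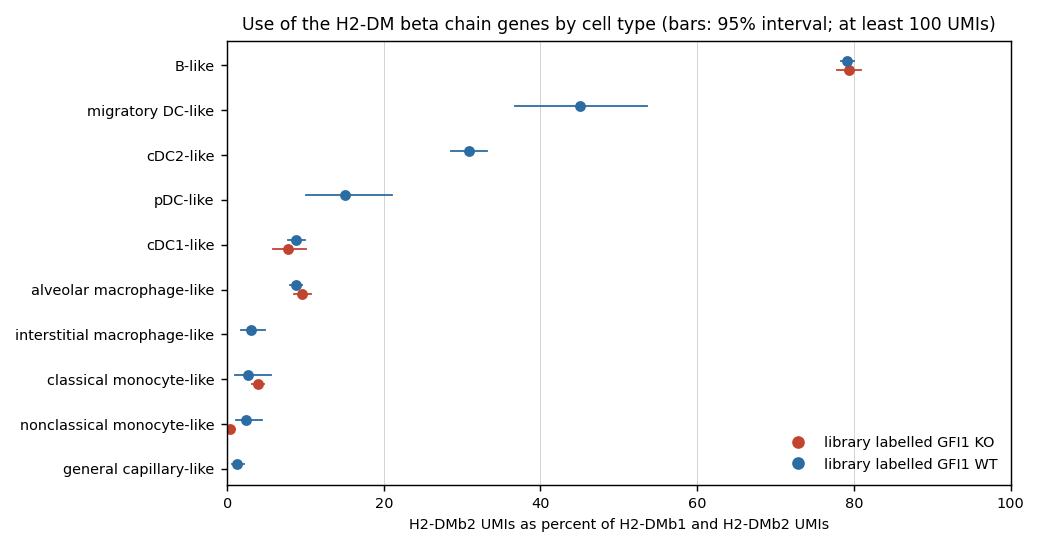
H2-DMb2 UMIs as a percent of H2-DMb1 and H2-DMb2 UMIs by cell type, for the library labelled GFI1 KO (red) and GFI1 WT (blue), with 95% intervals and only where a type held at least 100 such UMIs. B-like cells stand at 79.4% and 79.2%, cDC1-like cells at 7.82% and 8.81%, and WT migratory cells at 45.1%.

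The levels of the members were also compared with each other over cell types. Over 22 values (11 classes in each library, so that points of a class share its cells), log2(CPM + 1) of Cd74 had a Pearson r of 0.986 with the mean of the classical genes, Ciita 0.950, H2-DMb1 0.934, H2-DMb2 0.814 and H2-DMa 0.793. H2-Ob (0.530) and H2-Oa (0.387) were less alike to it, and had an r of 0.902 with each other. The 22 values include neutrophil-like, stromal and basophil-like cells, whose KO values rest on 1, 5 and 4 classical UMIs. The weight of these low points in r was not tested. Of the genes outside the pathway lists, among 10893 genes compared, the 10 most alike were Blnk (0.871), Zdhhc14 (0.869), Hepacam2 (0.863), Fgd2 (0.858), Il4i1 (0.856), Cd180 (0.855), Hdac9 (0.828), Ly86 (0.826), Rtn1 (0.824) and Syngr2 (0.824). Blnk is an adaptor of B cell receptor signalling, and Cd180 and Ly86 encode a Toll-like receptor homologue and a partner protein of its family.

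Of the other genes in the class II region, H2-Ea had 8 and 18 UMIs in the whole libraries. The I-E α chain gene is known to be inactive in C57BL/6 mice, where H2-Eb1 RNA is still made. H2-Eb2, a relative of H2-Eb1 whose reads may be split with it, read 102 and 112 CPM in B-like and 19.6 and 35.8 CPM in dendritic-like cells. Btnl2, a butyrophilin-like gene of the region, had 24 and 131 UMIs. Past 1.5-fold, 0 of the 2 with enough UMIs passed in B-like cells, and 0 of the 3 had enough UMIs in each of 6 other classes. In dendritic-like cells H2-Eb2, the 1 tested, was lower. Migratory cells held 12 of its 16 KO and 170 of its 238 WT UMIs there. They read 169 and 135 CPM (1.25, 0.635 to 2.25), and the part of the mix of cells was not tested.

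Lists of genes that control, feed or accompany class II were read in the same way, as counts past 1.5-fold. They stand against the shares of all genes given above, which were 15.6% lower and 16.6% higher in monocyte-like, 17.7% and 10.4% in endothelial-like, 12.0% and 9.99% in lymphoid-like, 25.2% and 9.29% in interstitial macrophage-like and 18.8% and 34.8% in epithelial-like cells. In the dendritic-like, alveolar macrophage-like and B-like classes they were 15.8% and 6.97%, 5.75% and 1.01%, and 5.61% and 3.68%. In monocyte-like cells the lists also carry the difference in clusters, with cluster 2 at 2867 of 4280 KO and 32 of 756 WT cells, and in epithelial-like cells the difference in tags. The part of either was not tested. In lymphoid-like cells interstitial macrophage markers summed to 57.7 CPM in the KO and 16.1 CPM in the WT library. B, dendritic and alveolar macrophage markers were lower in the KO library there. Their part was not tested, and no background level was taken for the genes of these lists. Few of the factors on the X-Y block (Rfx5, Rfxap, Rfxank, Nfya, Nfyb, Nfyc and Creb1) passed. Of the 7 tested, 1 was higher in B-like (Rfxap, 29.1 and 18.3 CPM) and in monocyte-like cells (Rfxap, 37.0 and 22.3 CPM), 1 was lower in dendritic-like cells (Nfyb, 15 and 195 UMIs), and 0 passed in alveolar macrophage-like, endothelial-like and lymphoid-like cells. With few cells, 1 of 3 was lower in interstitial macrophage-like and 2 of 3 higher in epithelial-like cells.

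Of the listed genes that act on Ciita, most did not pass outside epithelial-like cells. The list is chiefly of the interferon-γ pathway. It also holds Il10 and Tgfb1, which are not inducers, so its counts mix genes of different action. In monocyte-like cells 3 of 13 were lower, among them Irf1 (89.7 and 219 CPM) and Irf4 (3.15 and 6.09), and Il4ra was higher (108 and 56.3). In endothelial-like cells 4 of 11 were lower, among them Irf1 (265 and 682 CPM), and 1 was higher. In B-like cells 0 of 12 passed, in dendritic-like cells 1 of 12 was lower (Irf4), in alveolar macrophage-like cells 1 of 13 was lower (Il10) and in interstitial macrophage-like cells 4 of 12 were lower and 1 higher. Epithelial-like cells had 9 of 10 higher, beside the macrophage markers and tags given above, and lymphoid-like cells 2 of 14 in each direction.

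Class I presentation serves CD8+ T cells. In monocyte-like cells 4 of 11 were lower and 0 higher, led by Nlrc5, the class I counterpart of Ciita (35.1 and 89.6 CPM), H2-K1 (807 and 1740) and B2m (1751 and 3374), with a median log2 ratio of -0.47. In endothelial-like cells 3 of 11 were lower, B2m (1625 and 2576 CPM), Tap1 and Nlrc5, with a median of -0.49. In dendritic-like cells 2 of 11 were higher, Psmb9 (445 and 270 CPM) and Tap2 (126 and 83.1). In B-like, alveolar macrophage-like and interstitial macrophage-like cells none of the 11, 11 and 10 tested passed, in epithelial-like cells 2 of 9 were lower, and in lymphoid-like cells 1 of 11 was higher.

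The endosomal proteases and reductase that cut the invariant chain and antigen passed mainly upwards outside B-like, dendritic-like and alveolar macrophage-like cells. In monocyte-like cells, of 9 tested 4 were higher, among them Ctsl (257 and 64.9 CPM), Ifi30 (1275 and 431) and Ctsd (344 and 148), and Sppl2a was lower (264 and 419). In B-like and alveolar macrophage-like cells 0 of 9 passed, in dendritic-like cells 1 was lower (Ctsd, 148 and 296 CPM), and in interstitial macrophage-like, endothelial-like, lymphoid-like and epithelial-like cells 2, 3, 6 and 7 of 9 were higher and 0 lower.

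Of genes that set class II turnover at the surface, Cd83, which shields class II from the ligase MARCH1, was lower in monocyte-like cells at 127 against 788 CPM, as was Cd82 (26.8 and 65.3), 2 of 5. None of 3 passed in B-like and 0 of 5 in alveolar macrophage-like cells, and 2 of 5 were lower in dendritic-like cells (Cd63 and Marchf8). Interstitial macrophage-like cells had 2 of 5 higher and 1 lower, epithelial-like and endothelial-like cells 2 of 5 higher, and lymphoid-like cells 3 higher and 2 lower.

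Costimulatory genes give the second signal to T cells. In dendritic-like cells 4 of 9 tested were lower in the KO library, led by Cd40 (47.8 and 129 CPM), Pdcd1lg2 (20.8 and 66.6) and Tnfsf9 (76.0 and 161), and Cd70 was higher on 9 and 41 UMIs, with a median log2 ratio of -0.44. Migratory cells made up 10 of the 86 KO and 108 of the 599 WT dendritic-like cells, and their part was not tested. In alveolar macrophage-like cells Cd86 was lower (74.6 and 170 CPM), 1 of 5, and in B-like cells Cd80 (31.8 and 60.9 CPM), 1 of 6. In monocyte-like cells 3 of 7 were lower and 1 higher, in endothelial-like cells 1 of 4 in each direction, in interstitial macrophage-like cells 3 of 5 higher and 1 lower, in lymphoid-like cells 5 of 7 higher and 2 lower, and in epithelial-like cells all 3 higher.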

How the data were processed

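The authors deposited 1 matrix of UMI counts per library, made with Cell Ranger 9.0.1 on GRCm39 (mm39) per the submitters' processing notes, unnormalized, with 18 antibody tags. Cells with at least 500 UMIs, 200 genes and at most 20% mitochondrial UMIs were kept. Mitochondrial, ribosomal protein and Gm-numbered genes (9548, holding 19.0% of KO and 16.5% of WT UMIs) were left out. Cells were clustered jointly with scanpy 1.11.5 and leidenalg 0.10.2 on 2000 variable genes without class II genes (50 components, 15 neighbours, resolution 0.8; unnamed clusters of 60 or more cells again at 0.5). A cluster was named with at least 5 markers raised 1.5-fold and 2 more than any other class, thresholds set after the data were seen. It stayed unnamed if another class had 5 or more raised or if 50% or more of its cells were called doublets. The same held if its 10 leading genes held 3 or more cell cycle genes or more markers of another class, as in cluster 3.1. Clusters with few UMIs and no own marker among those genes also stayed unnamed. Scrublet marked 346 KO (3.30%) and 1137 WT cells (5.88%) as doublets, which were kept.

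UMIs were summed per class and library. Intervals at 95% are exact Poisson, conditional binomial (ratios) or Clopper-Pearson (shares). A gene was called past the fold at 1.5-fold or more with at least 50 UMIs in a class, and a count of 0 was read against 3 counts. For shares, cells were thinned to 1500 UMIs and shallower cells left out. Scripts were tested on simulated data. Named genes are the 10 members in every class, at most 3 per direction of each of 7 lists, and the 10 genes most alike. List genes were taken by the interval bound nearer to 1. The lists were promoter factors, genes acting on Ciita, antigen processing, class II turnover, other region genes, class I and costimulation. Members and lists were chosen with earlier results of these data known. The class annotation was rebuilt here, so it may differ from the study's. Alternatives are given in the closing section. Some genes and an antibody tag are not reported here, and other tags are given where they bear on a class name.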

Additional observations from a re-analysis of the deposited data

How the results depend on the processing

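Values below are log2 KO/WT ratios of the classical sum unless said otherwise. With 1 library per label no alternative tests the genotype, leaving out a replicate was not possible, and small KO classes (86 dendritic-like, 20 interstitial macrophage-like, 115 endothelial-like cells) limit precision. No paired analysis was possible because each label has 1 library. Of 89 alternatives to the class ratios 45 stayed within the counting interval of the reported value, 43 moved beyond it and 1 reversed. A reversal was counted only where the reported ratio was past 1.5-fold, and the other changes of sign are among the 43. The sign was kept in 85 of the 89. Where a value changed, the cause was not tested unless the alternative itself left cells out.

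In B-like cells (0.36) the ratio was 0.11 with each library clustered on its own, 0.38 with class II genes allowed among the variable genes, 0.33 with all genes in the denominator, 0.33 with equal cluster weights, 0.38 after subtracting the neutrophil-like level and 0.40 without the Vpreb3-high cluster. In dendritic-like cells (0.36) it was 0.24 without called doublets, 0.31 at resolution 0.5, 0.30 with cells assigned singly, 0.32 with all genes in the denominator and 0.23 in conventional cells only. In monocyte-like cells (-1.76) it was -1.42 with separate clustering, -1.54 at resolution 0.5, -1.94 at 1.2, -1.54 with class II genes allowed, -1.48 with cells assigned singly, -1.82 with all genes in the denominator, -1.53 as a mean over cells, -0.65 with equal weights, -1.70 after subtraction, -0.065 without cluster 2 and -1.53 with cluster 3.1. In alveolar macrophage-like cells (-0.52) it was -0.62 without doublets, -0.69 with separate clustering, -0.58 and -0.59 at resolutions 0.5 and 1.2, -0.89 with cells assigned singly, -0.60 as a mean over cells and -0.055 after subtraction. In interstitial macrophage-like cells (-0.32) it was -0.25 without doublets, -0.0076 with class II genes allowed, -0.15 with cells assigned singly and 0.089 as a mean over cells. In epithelial-like cells (0.36) it was 0.15, -3.69 (resolution 0.5), 1.98 (assigned singly), -0.17 (mean over cells) and 0.90 (subtraction), the first without doublets. In endothelial-like cells (-0.73) it was -1.04 with cells assigned singly and -1.01 as a mean over cells. In lymphoid-like cells (-1.05) it was -0.82 without doublets, -1.40 at resolution 0.5 and -3.36 with cells assigned singly, and separate clustering turned it to 0.99, with H2-Aa at 1.02, H2-Ab1 at 1.06, H2-Eb1 at 0.85 and H2-DMb1 at 1.62.

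At 2-fold, the members counted as lower were 1 in place of 3 in alveolar macrophage-like, 0 in place of 2 in interstitial macrophage-like, 1 in place of 6 in endothelial-like and 2 in place of 5 in lymphoid-like cells. In monocyte-like cells Ciita (ratio 0.510) and H2-Ob (0.512) were not past 2-fold either. The share of all genes past 2-fold is not given, so these counts have no background beside them. The 2 higher in epithelial-like and the 1 higher in endothelial-like cells became 0 at 2-fold and at a minimum of 100 UMIs. Separate clustering gave no KO cells named interstitial macrophage-like or epithelial-like and was not run for them, nor was the subtraction for lymphoid-like cells. The values without cluster 2, with cluster 3.1, in conventional dendritic cells only and without the Vpreb3-high cluster were chosen after seeing the data.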

Other observations

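Some unnamed clusters, which entered no comparison between classes, held classical levels as high as the dendritic-like ones. Cluster 14.4 (33 KO and 46 WT cells), led by Cd209a, Klri1 and Cd209d, read 25607 CPM in the KO and 17908 CPM in the WT library. Clusters 14.5 to 14.8, in which Mgl2 and Cd209a, known from dendritic cells, stood beside Fcrls or C1qa, known from macrophages, held 1 to 6 KO and 13 to 45 WT cells each. In cluster 14.8, 46.7% of cells were called doublets. Cluster 14.5 read 41881 and 30021 CPM and cluster 14.7, with 1 KO cell, 2492 and 21924 CPM.

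Cluster 13.4 (10 and 28 cells) was led by Jchain, Igha and Igkc, genes of antibody-secreting cells, and read 16274 and 6412 CPM of classical genes. Cluster 22 (132 and 112 cells), led by Ccdc192, Tmem26 and Cd300e, read 2013 and 2610 CPM, but 60.2% of its cells were called doublets and 8 of 8 B cell markers were raised in it. Clusters 17.1 to 17.3, led by Mmp12, Arg1 or Ccl24, held 0 to 4 KO and 62 to 117 WT cells and read 1093 to 2545 CPM in the WT library. Among lymphoid-like cells the Il17a-high T cell cluster 9 (495 and 571 cells) read 36.3 and 102 CPM, the Klra8-high NK cluster 4 read 48.9 and 79.9 CPM, and the Il5-high cluster 26 (9 and 153 cells) had 0 UMIs in the KO library and 286 CPM in the WT library.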
